A study of Homo sapiens with 34 samples.

Results

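The genes described here encode the proteins of the cytosolic ribosome. They were chosen by symbol from the RefSeq gene table of GRCh38.p14: protein-coding genes whose names begin with RPL or RPS and a digit, together with RPLP0, RPLP1, RPLP2 and RPSA. Ribosomal protein S6 kinases, RPS19BP names and paralogs whose names end in L, or in L and a digit, were left out. The rule found 82 genes. Of these, 3 readthrough loci (RPS10-NUDT3, RPL17-C18orf32 and RPL36A-HNRNPH2) repeat other members, and 2 lie on chromosome Y, which was not analysed here. The other 77 are described, 46 of the large subunit (RPL) and 31 of the small subunit (RPS), among 19970 protein-coding genes on the autosomes and X. FAU, which encodes a ribosomal protein fused to a ubiquitin-like protein, falls outside the rule.

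The cells were DLD1 (DNTCF), a colorectal adenocarcinoma line with a Tet-inducible transgene for dominant negative TCF7L2, carried by all groups including the untreated ones. Induced cells had 1 µg/mL doxycycline for 24 h, and uninduced cells had none. Chromatin immunoprecipitation and sequencing (ChIP-seq) used antibodies to RNA polymerase II (Pol II) and to H3K27ac, acetylation of histone H3 at lysine 27. Each antibody and condition had 2 samples but 1 peak list, so the 4 lists give no spread between replicates and no p-value. Whether the line is a single clone is not stated in the labels, and no cells without the transgene were given doxycycline among these samples, so the transgene and the drug cannot be told apart. Another 24 RNA-seq samples were not analysed here.

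A ribosome joins a small subunit, which reads the mRNA, to a large subunit, which makes the peptide bond, and nearly every ribosomal protein is needed in equal number. Their genes are among the most actively transcribed in dividing cells, and their mRNAs begin with a C followed by a run of C and T, the 5′ terminal oligopyrimidine (TOP) tract, through which mTOR signalling controls their translation. Pol II is found along a gene being transcribed, at the start and often beyond the end of the transcript, whereas H3K27ac marks active promoters and enhancers. The dominant negative TCF7L2 occupies the sites through which β-catenin activates Wnt target genes, MYC among them.

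The tract could be read in the RefSeq promoter table (GRCh38.p14), which matched 62 of the 77 members. A tract was counted where the annotated first base is a C and at least 4 bases of C or T follow. It was present in 42 of 62 members, 67.7% (Wilson 95% interval 55.4 to 78.1), in 7.25% of 69 promoters of mitochondrial ribosomal protein genes and in 4.60% of all 15810 promoters. With a tract allowed to begin within 5 bases of that start, the counts were 50 of 62 members (80.6%) and 22.1% of all promoters. The windows below are shown because they carry that feature. Each runs from 10 bases before the annotated start to 20 bases from it on, 5′ to 3′, and the capitals mark the longest run of C and T that begins with a C within 5 bases of the start. The first set holds long tracts and several members whose values are given below.
RPL39, chrX:119791611-119791640, minus strand: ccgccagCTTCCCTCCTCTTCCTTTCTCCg
RPL7A, chr9:133348208-133348237, plus strand: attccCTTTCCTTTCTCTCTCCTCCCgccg
RPLP2, chr11:809957-809986, plus strand: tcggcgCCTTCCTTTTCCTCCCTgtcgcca
RPS24, chr10:78033853-78033882, plus strand: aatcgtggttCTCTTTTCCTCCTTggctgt
RPL26, chr17:8383174-8383203, minus strand: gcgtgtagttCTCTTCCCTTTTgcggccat
RPL36A, chrX:101391001-101391030, plus strand: ctcgcggtttCTTTCTTTCCgcgccgatag
RPLP1, chr15:69452808-69452837, plus strand: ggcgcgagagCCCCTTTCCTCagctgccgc
RPS19, chr19:41860245-41860274, plus strand: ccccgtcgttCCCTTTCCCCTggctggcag
A second set holds other members whose coverage in the lists is described below.
RPL18, chr19:48619159-48619188, minus strand: agcccgttCTCTCTTTCCggacctggccga
RPS6, chr9:19380217-19380246, minus strand: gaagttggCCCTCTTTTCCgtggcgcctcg
RPS3A, chr4:151099618-151099647, plus strand: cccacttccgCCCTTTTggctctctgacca
RPL13A, chr19:49487598-49487627, plus strand: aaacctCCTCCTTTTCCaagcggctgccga
RPLP0, chr12:120201092-120201121, minus strand: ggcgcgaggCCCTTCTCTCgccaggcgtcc
RPL3, chr22:39319604-39319633, minus strand: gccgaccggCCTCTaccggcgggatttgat
RPL39 had the longest tract from its annotated first base, 19 bases, against a median of 8 among members with one. The annotated starts of 12 members had no tract within 5 bases: RPL10, RPL13, RPL15, RPL17, RPL27, RPL6, RPL9, RPS15, RPS26, RPS27A, RPS29 and RPS4X. An annotated start can lie away from the one a cell uses, and 3 of these windows are shown for contrast, with no capitals.
RPL10, chrX:154398055-154398084, plus strand: ccactctcagaaatatacgtctgtcacagt
RPS4X, chrX:72277229-72277258, minus strand: ctccagccccaatttctacgcgcaccggaa
RPS26, chr12:56041908-56041937, plus strand: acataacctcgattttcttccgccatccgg
The promoter table gives 250 bases before each start and 50 from it on, and short motifs were searched there on both strands. CCGGAAG, the core bound by ETS factors such as GABPA, was in 33.9% of members and 14.2% of all promoters. AAGATGG, the core of the YY1 motif, was in 12.9% of members, 33.3% of the mitochondrial ribosomal protein promoters and 6.40% of all. GGGCGG, the GC box of SP1, was in 54.8% against 58.5% of all, and TATAAA in 8.06% against 9.64%. CACGTG, the E-box bound by MYC with MAX, was in 4.84% of members against 8.87% of all promoters. ATCAAAG, the motif of TCF factors, was in 1 of 62 members (1.61%) against 1.95% of all. That member was RPS27, and its window is shown with the motif in capitals, which begins 94 bases before the start.
RPS27, chr1:153990658-153990684, plus strand: actgcggcggATCAAAGtaagacgttc

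Coverage here means how much of a gene, in percent of its bases, lies inside the regions of a list. All 77 members were covered at least in part in all 4 lists. So were all 77 mitochondrial ribosomal protein genes, 40 translation factors and 40 ribosome biogenesis genes. Of 19967 protein-coding genes, readthrough loci left out, 14031 induced and 14364 uninduced were so covered for Pol II, and 14756 and 14812 for H3K27ac. For Pol II the median member was covered over 55.0% of its length in the induced list and 60.8% in the uninduced list. The median over all protein-coding genes was 1.73% and 2.17%. Members are short, with a median length of 5011 bp, and genes of 2 to 10 kb had medians of 8.45% induced and 10.4% uninduced. The 77 mitochondrial ribosomal protein genes had 13.1% and 16.3%, 40 translation initiation and elongation factors 12.3% and 13.7%, and 40 ribosome biogenesis genes 6.15% and 6.47%. A single Pol II region spanned the whole gene for 9 members in the induced list and 11 in the uninduced list. All of these but RPL10A and, in the uninduced list, RPLP0 have another protein-coding gene within 1 kb, beside 33 of all 77 members. The lowest values belonged to RPL22, an RNA-binding protein of the large subunit, with 3.88% in the induced list and 6.71% in the uninduced list.

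The strength of a region was read from its highest summit, by the authors' −log10 q, taken inside the gene or within 1 kb of it. That value was ranked, as a percentile, among the genes with a summit in the list. For Pol II the median place of the members was 90.11 in the induced and 89.95 in the uninduced list, and 39 and 38 of 77 stood above percentile 90. RPL3, which lies at the peptidyl transferase centre, stood at percentile 99.9 in the induced list and 99.2 in the uninduced list. Its strongest Pol II summit had a fold enrichment of 63.2 in the induced list and 40.1 in the uninduced list, with a −log10 q of 445 and 441. Neither value can be compared between lists. RPL22 stood at 37.9 and 41.7, and the only other members under 50 were RPS13 in the induced list (44.2) and RPL23A in the uninduced list (46.8). Mitochondrial ribosomal protein genes had median places of 57.9 and 61.9, and translation factors 75.9 and 71.1.

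H3K27ac put the members less far up the list. Their median place was 66.4 in the induced and 68.6 in the uninduced list, with 7 and 12 of 77 above percentile 90. Median H3K27ac coverage was 59.6% induced and 65.1% uninduced, against 12.4% and 12.6% for genes of 2 to 10 kb. The longer the member, the smaller the share inside H3K27ac regions (Spearman rho −0.74 induced and −0.76 uninduced across the 77 members, a description over genes of the same lists). For Pol II that rho was −0.43 and −0.40.

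**Figure D1:**
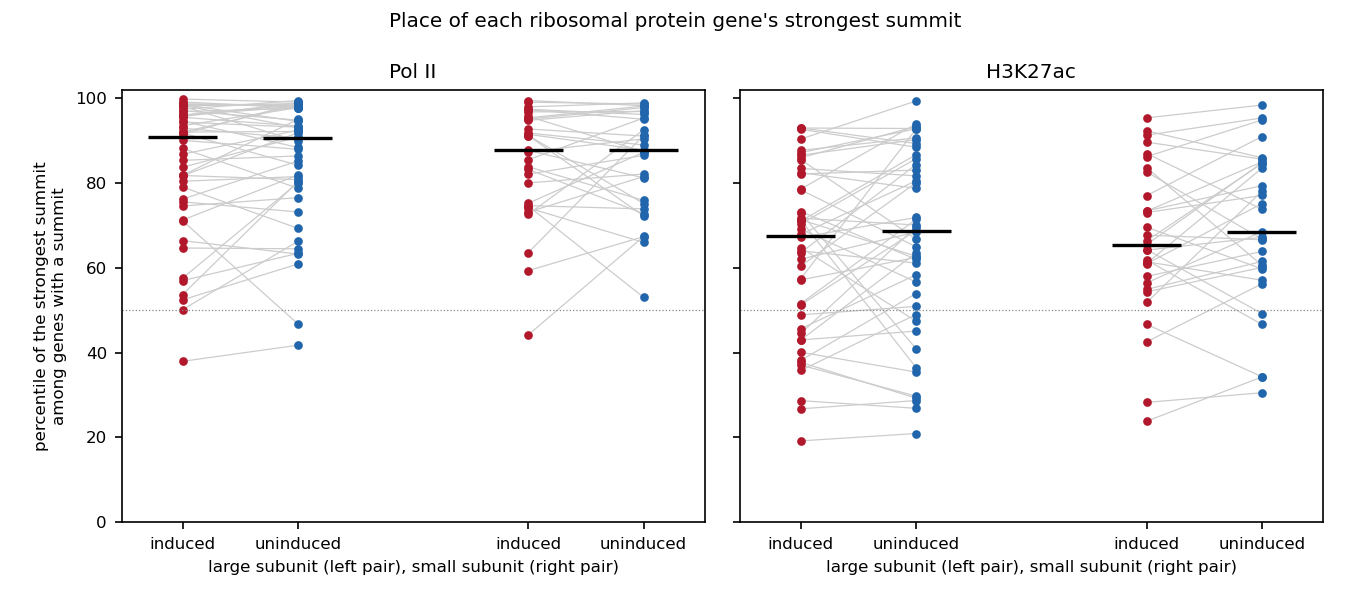
Percentile of each ribosomal protein gene's strongest summit (y axis) among genes with a summit in the list, for Pol II and H3K27ac, with induced points left of uninduced points in each subunit and a bar at the median. A grey line joins the same gene in both lists. For Pol II, 39 of 77 members in the induced list and 38 in the uninduced list stand above percentile 90, against 7 and 12 for H3K27ac.

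An annotated start with a strand was matched for 59 members. That base lay inside a region in 59 of 59 members for both marks and both conditions. The same held for 53.2% (induced) and 54.7% (uninduced) of the other genes of 2 to 10 kb for Pol II, and for 61 of 61 mitochondrial ribosomal protein genes for both marks and both conditions. The strongest Pol II summit lay a median of 46 bp downstream of the start in both lists. The strongest H3K27ac summit lay 324 bp downstream in the induced list and 316 bp in the uninduced list. Within the first 1 kb, the median coverage was 100% for both marks. Beyond the first 1 kb, median Pol II coverage of members was 46.0% in the induced list and 50.5% in the uninduced list, whereas it was 0% in both lists for other genes of 2 to 10 kb and 0.696% and 1.88% for mitochondrial ribosomal protein genes.

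Pol II regions were frequent again past the annotated end of the members. The first 1 kb after the end was at least 50% covered by Pol II regions in 46 of 59 members in the induced list (78.0%) and in 52 of 59 in the uninduced list (88.1%). Many members have a neighbour close by, so the 35 with no other protein-coding gene in the 2 kb after the end were taken alone. Of these, 25 (71.4%) in the induced list and 31 (88.6%) in the uninduced list were so covered. Other genes of 2 to 10 kb with that space free gave 18.9% and 22.1%, and 40 mitochondrial ribosomal protein genes 30.0% and 35.0%. Among genes of 2 to 10 kb whose strongest Pol II summit was at percentile 75 or above in both lists, with that space free, the counts were 15 of 18 members (83.3%) induced and 18 of 18 uninduced, against 134 of 225 (59.6%) and 149 of 225 (66.2%) of the other genes. In that stratum median Pol II coverage of the gene was 57.1% and 63.6% for 44 members and 47.9% and 53.6% for 591 other genes.

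The end of the gene itself lay inside a Pol II region for 18 of the 35 in the induced list and 20 in the uninduced list, and the region ran on for a median of 4183 bp and 4350 bp. The longest run belonged to RPL37A, 8276 bp in the induced list and 10599 bp in the uninduced list. A summit was called in the 2 kb after the end in 31 of the 35 in both lists, with a median fold enrichment of 12.1 induced and 12.5 uninduced. The start summits of the 35 had 32.7 and 32.6. By −log10 q the summit after the end was the stronger in 0 of these members in either list. By fold it was the stronger at RPL13A in the induced list (32.4, against 30.4 near the start) and at RPS19 in the uninduced list (30.2, against 25.7). At RPLP1, a stalk protein, the summit near the start had a fold of 44.1 induced and 28.3 uninduced, and the summit after the end 18.03 and 14.73. Fold and −log10 q only rank within a list. Here the −log10 q went the other way, with 350 and 360 near the start and 89.45 and 94.1 after the end. H3K27ac regions were less frequent there. They covered at least 50% of the 1 kb after the end in 22 of 59 members (37.3%) in both lists, with a median of 0%. Of the 35 with free space, 25.7% in the induced list and 28.6% in the uninduced list were so covered, against 8.10% and 8.46% of other genes of 2 to 10 kb.

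**Figure D2:**
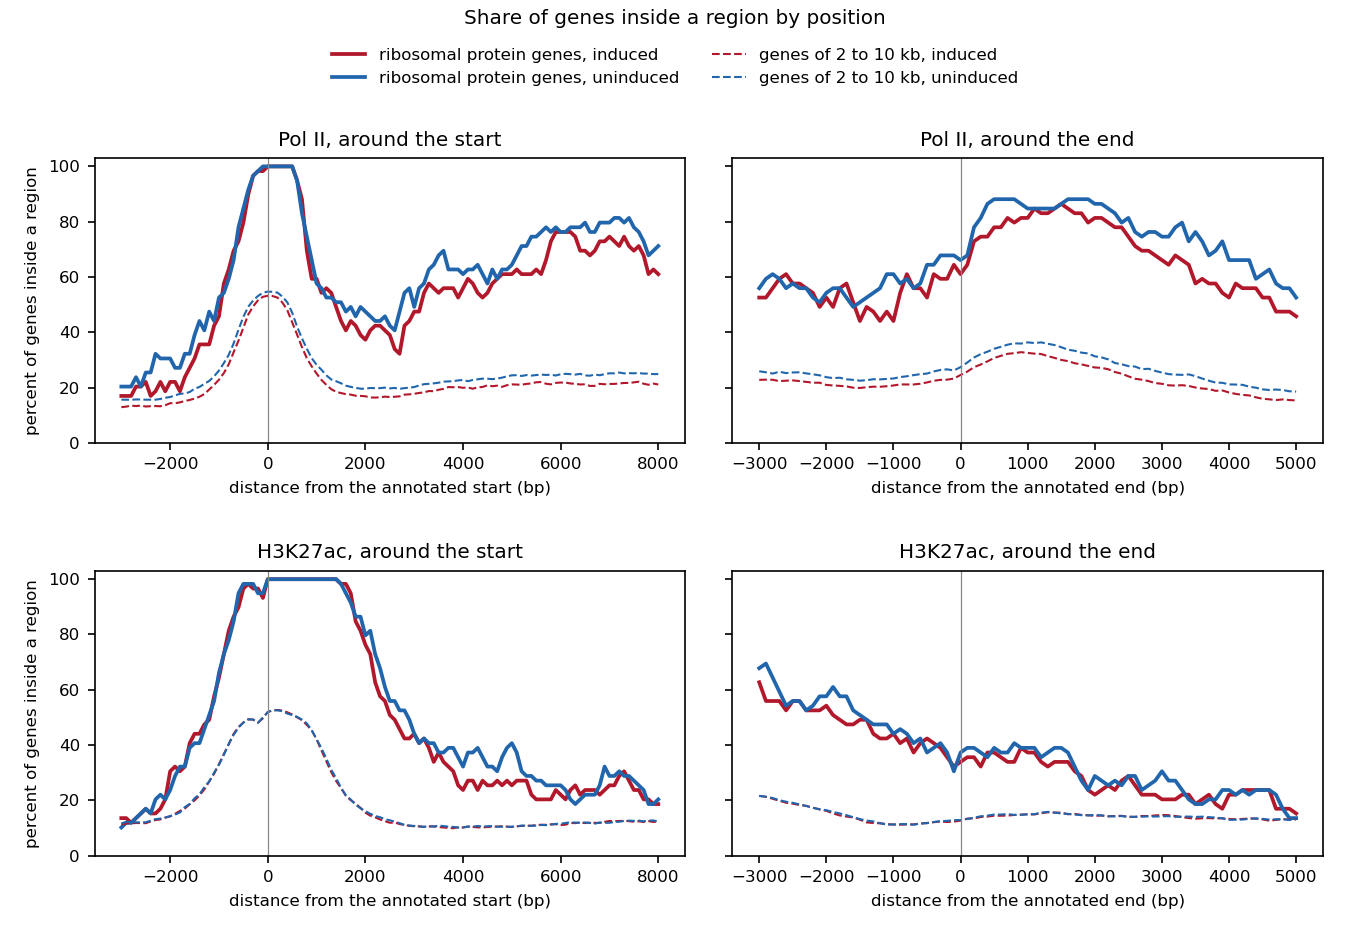
Share of genes whose base at a given distance (x axis, bp) from the annotated start or end lies inside a region, for 59 ribosomal protein genes (solid) and 2995 other genes of 2 to 10 kb (dashed), induced in red and uninduced in blue. At 1500 bp after the end 86.4% of members were inside a Pol II region in both lists, against 44.1% induced and 61.0% uninduced at 1000 bp before it. H3K27ac falls away from the start and is nearly level around the end, where 33.9% of members were inside a region in the induced list and 37.3% in the uninduced list, against 33.9% and 39.0% at 1500 bp after it.

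Between the conditions, Pol II coverage of the members was lower in the induced list more often than higher, and so was that of other genes. Differences are induced minus uninduced, in percentage points, for genes that are 2 kb or longer and touched by a region of either list. Of 72 such members 52 were lower, 14 higher and 6 equal in the induced list, with a median difference of −4.20 points. Of 14084 genes of all kinds, 77.9% were lower, against 72.2% of members, with a median of −0.506. Genes of 2 to 10 kb had 70.1% lower and a median of −2.37. Among genes of that length with a mean Pol II coverage between 25 and 90%, 32 of 41 members (78.0%) and 859 of 1102 other genes (77.9%) were lower, with medians of −8.46 and −6.14. The induced Pol II list held 50665 regions over 56.7 Mb and the uninduced list 57247 over 70.9 Mb. With both lists held to the same number of regions, the median of the members was −2.82 points, beside −1.97 for genes of 2 to 10 kb and −0.379 for all genes. In that setting 65.3% of members were lower, beside 67.5% and 74.6%.

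A gene was counted when its difference lay over 25 points from the median difference. By that limit 2 members, RPL18 among them, were lower in the induced list, where 0.817% of all genes were, and 0 were higher, where 0.0284% of all genes were. At a limit of 10 points 20 members were lower and 5 higher, with 6.43% and 0.419% of all genes so called. Short genes gave larger differences. Of 2669 genes of 2 to 10 kb, 91 were lower by over 25 points and 4 higher, beside 2 and 0 of 63 members of that length. At 10 points 525 of them (19.7%) were lower and 55 higher, beside 19 and 5 of the 63 members. In the stratum of like coverage 18 of 41 members and 393 of 1102 other genes were lower by over 10 points. Which members passed 25 points depended on the weakest regions. With regions of −log10 q of 5 or more alone, RPL18 did not pass, and 3 other members did, among them RPS16 (27.7% induced, 70.3% uninduced) and RPL36A (23.4% and 63.9%).

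RPL18, a large subunit protein, had 35.0% of its length in Pol II regions in the induced list and 80.2% in the uninduced list. Around its start the region covered 510 bp of the gene induced and 1198 bp uninduced, and 2 weak regions inside the gene were called in the uninduced list, with −log10 q of 2.53 and 2.78, against 1 in the induced list, with 5.53. With regions of −log10 q of 5 or more alone, RPL18 had 35.0% and 46.4%. It was wholly inside an H3K27ac region in both lists.

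RPL30, whose yeast counterpart regulates the splicing of its own transcript, stood just short of the limit, with 15.4% in the induced list and 40.4% in the uninduced list, or 15.4% and 33.2% with the stricter regions. RPS13 had 51.6% in the induced list and 72.0% in the uninduced list. RPL36A had 53.7% and 74.1%. RPL13A, which also serves in a complex that represses translation in inflamed myeloid cells, had 74.5% and 92.7%.

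The members with more Pol II coverage in the induced list were led by RPS27, a zinc finger protein of the small subunit. It had 87.8% in the induced list and 59.7% in the uninduced list, a difference of 28.1 points, which is in no count of differences above because the gene is 1394 bp long. A weak region near its end, with a −log10 q of 2.65, was called in the induced list alone, and without regions under 5 the values were 61.0% and 59.7%. RPLP1 had 79.2% induced and 60.8% uninduced, the same under the stricter limit. RPL29 had 67.9% and 51.5%, and RPLP2 38.0% and 22.6%, or 28.4% and 22.6% under that limit. RPS3A had 65.4% and 53.4%, and RPS12 had 61.1% and 50.8%, or 61.1% and 24.4% with both lists held to the same number of regions. At the stricter limit RPS3A differed by −2.77 points and RPL13A by 2.94 points, both the other way round.

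**Figure D3:**
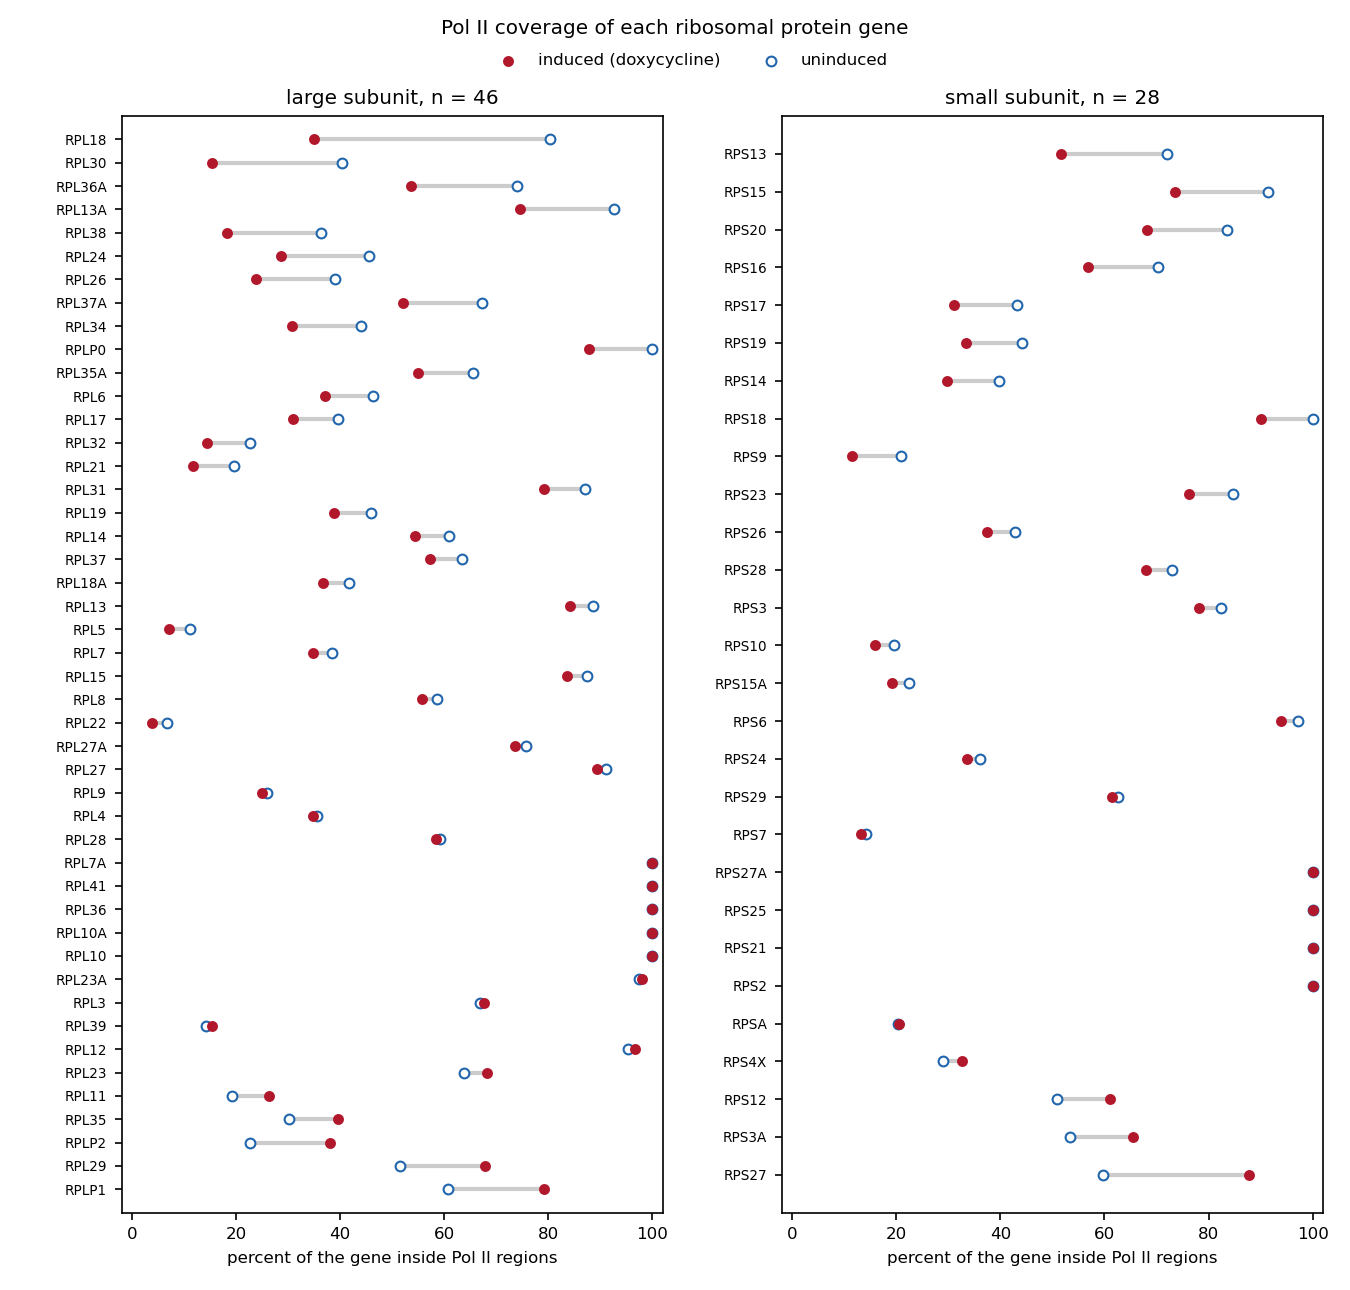
Percent of each gene inside Pol II regions (x axis) for 46 large and 28 small subunit genes, sorted by difference, with induced values as filled red points and uninduced values as open blue points. RPL18 and RPS13 head the panels with induced values of 35.0% and 51.6% against uninduced values of 80.2% and 72.0%, and RPLP1 and RPS27 stand at the foot with higher induced values.

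Pol II differences occurred both near the start and beyond it. In the first 1 kb, Pol II coverage was lower in the induced list in 15 of 59 members, higher in 18 and equal in 26. Beyond 1 kb it was lower in 35, higher in 13 and equal in 11, with a median of −2.40 points. In the first 1 kb RPL18 had 51.0% induced and 100% uninduced, RPL21 58.9% and 98.1%, and RPL37A 64.4% and 100%. Coverage cannot pass 100%: Pol II covered the whole first 1 kb in both lists in each of the 26 equal members, and H3K27ac did so in 59 of 59, so this measure could show no H3K27ac difference there. By strongest Pol II summit, 40 members stood lower and 37 higher in the induced list, and the median of these differences was −0.138 percentile points. It ranged from −27.7 at RPS7 to 24.3 at RPL23A, and these ranks have no replicate check.

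H3K27ac coverage differed less. Of 72 members 44 were lower, 19 higher and 9 equal in the induced list, with a median difference of −1.05 points. Of 14619 genes of all kinds 55.8% were lower, against 61.1% of members, with a median of −0.0829. Genes of 2 to 10 kb had 50.5% lower and a median of −0.0496. With regions of −log10 q of 5 or more alone, 52.8% of members were lower, beside 56.3% of all genes and 50.2% of genes of 2 to 10 kb. Among genes of that length with a mean H3K27ac coverage between 25 and 90%, 29 of 42 members (69.0%) and 622 of 1217 other genes (51.1%) were lower, with medians of −2.66 and −0.151. Of these members 0 passed 25 points either way, beside 0.0342% of all genes lower and 0.0616% higher. At 10 points 9 members were lower and 2 higher, beside 1.11% and 0.787% of all genes. Of 2604 genes of 2 to 10 kb 122 (4.69%) were lower by over 10 points and 89 higher, beside 8 and 2 of 63 members of that length. By strongest H3K27ac summit, 47 members stood lower and 30 higher in the induced list, and the median of these differences was −3.03 percentile points.

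RPS10, of the small subunit, had 35.2% of its length in H3K27ac regions in the induced list and 59.6% in the uninduced list, and 3 of its 4 uninduced regions were weak, with −log10 q between 1.39 and 2.31. Without regions under 5, RPS10 had 35.2% and 44.1%. RPL30 had 44.2% and 61.7%, and RPL26, which binds the p53 mRNA, 71.8% and 88.6%. At the stricter limit RPL26 alone passed 25 points for H3K27ac, with 53.7% in the induced list and 88.6% in the uninduced list. RPS4X had 41.3% and 57.4%, and RPS6, the substrate of the S6 kinases, 48.1% and 62.7%. In the other direction RPL10, which joins the large subunit late in its assembly, had 68.7% in the induced list and 57.6% in the uninduced list, and RPL38, needed for translation of Hox mRNAs in mouse, had 66.0% and 56.1%. RPL7 had 57.3% and 50.4%, RPS3 36.4% and 30.6%, and RPL19 58.4% and 52.8%. With regions of −log10 q under 5 left out, RPS4X was 3.92 points higher in the induced list, and RPL38 and RPL19 differed by −4.07 and −4.40 points.

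**Figure D4:**
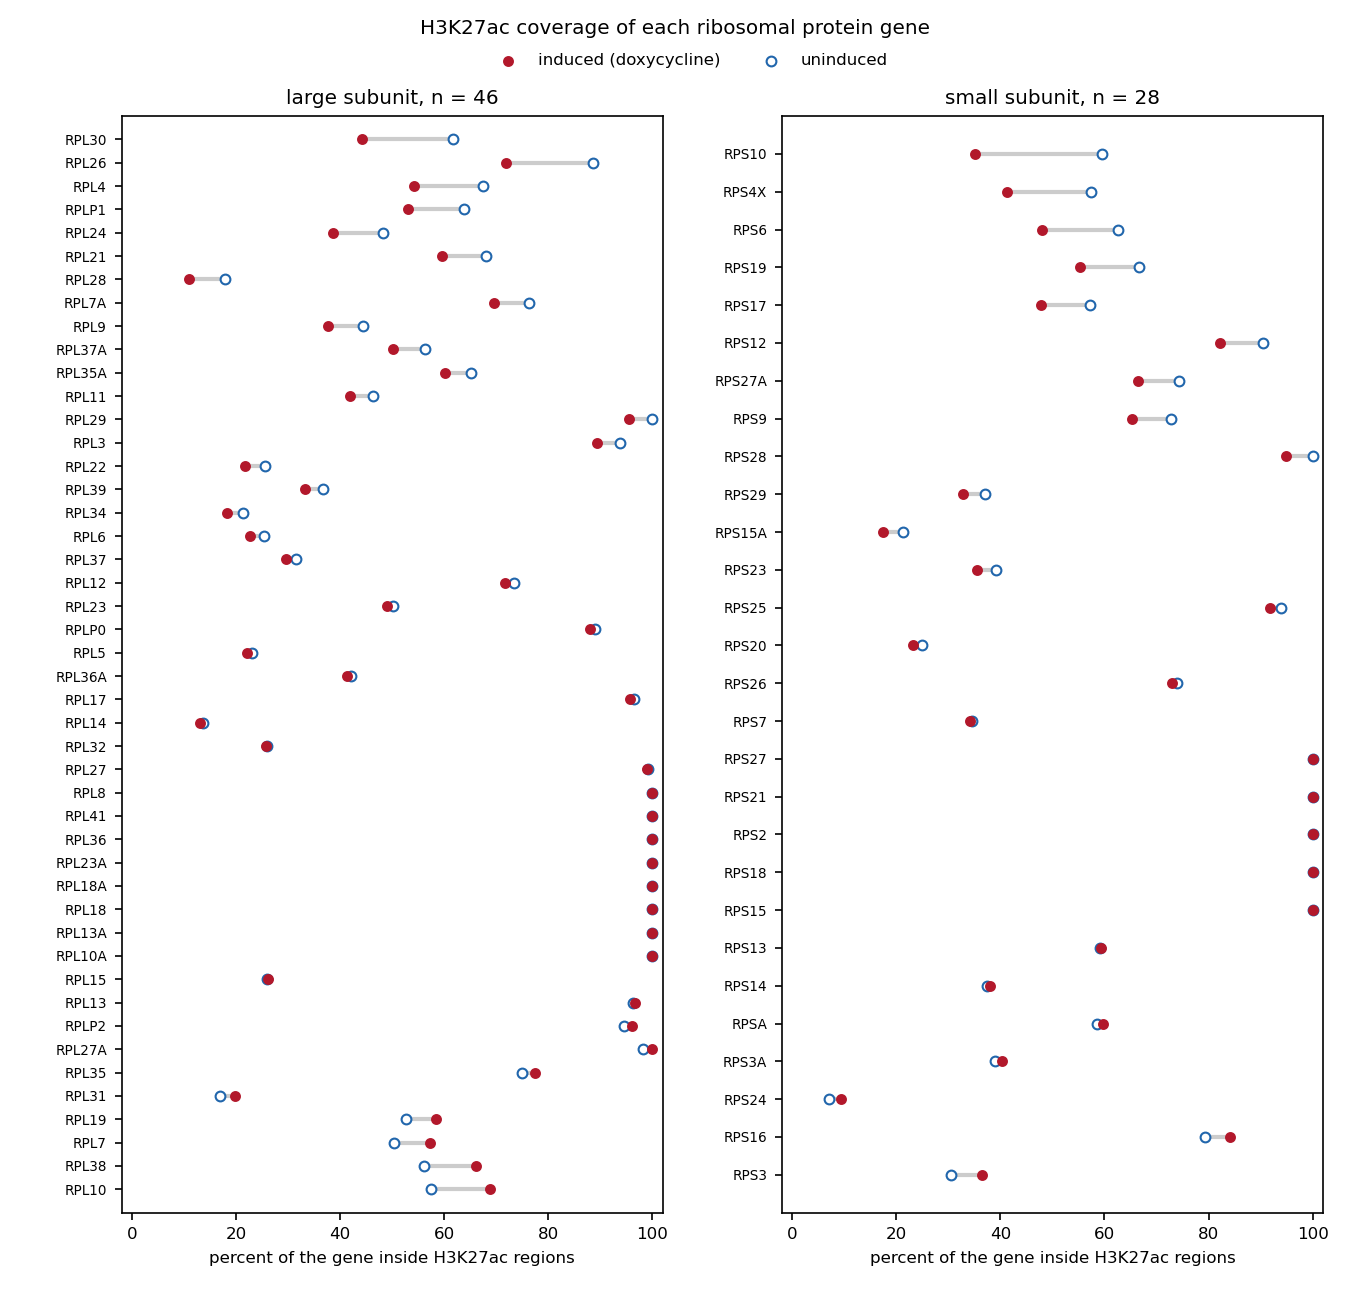
Percent of each gene inside H3K27ac regions (x axis) for 46 large and 28 small subunit genes, sorted by difference, with induced values as filled red points and uninduced values as open blue points. RPL30 (44.2% induced, 61.7% uninduced) and RPS10 (35.2% and 59.6%) head the panels, and RPL10 (68.7% and 57.6%) and RPS3 (36.4% and 30.6%) stand at the foot.

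The members that differed in Pol II were mostly not those that differed in H3K27ac. Across the 77 members the rho between the Pol II and the H3K27ac difference was −0.00076, a description over genes of the same lists. Both marks were lower in the induced list in 33 members and both higher in 4. Pol II was lower and H3K27ac higher in 14, the reverse held in 9, and 17 had no difference in 1 mark or both. In each of these 17 the mark without a difference covered the whole gene in both lists, so this measure could show none there. RPL38 had 18.3% of its length in Pol II regions induced and 36.4% uninduced while its H3K27ac coverage was higher, and RPLP1 was the reverse, with H3K27ac coverage of 53.0% and 63.8%. Neither example kept its opposed signs with regions of −log10 q of 5 or more alone: the H3K27ac difference was then −4.07 points at RPL38 and 1.86 points at RPLP1.

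**Figure D5:**
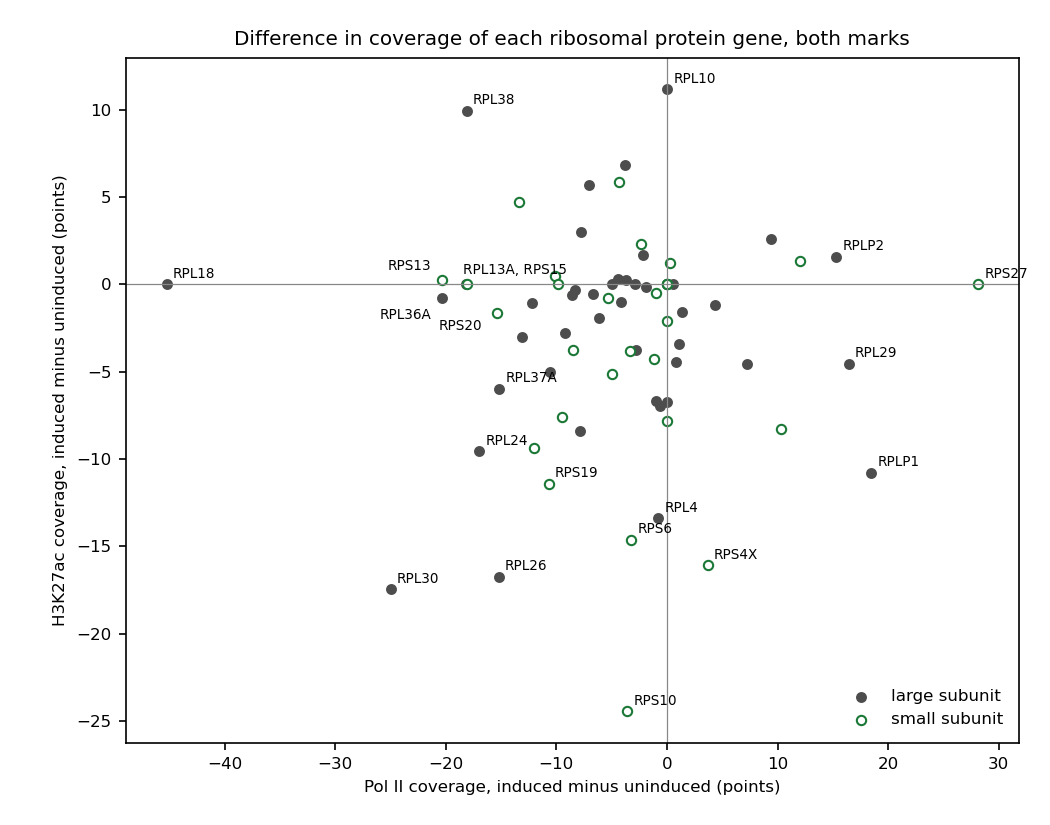
Difference in Pol II coverage (x axis) and in H3K27ac coverage (y axis), induced minus uninduced in percentage points, of each of 74 ribosomal protein genes, with large subunit genes filled and small subunit genes open. RPL18, wholly inside an H3K27ac region in both lists, lies far to the left at 0 on the y axis. RPS10 lies low near 0 on the x axis, and RPL30 is low in both.

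By role, the stalk proteins RPLP0, RPLP1 and RPLP2, which call elongation factors to the ribosome, did not move one way. RPLP0 had 87.8% Pol II coverage in the induced list and 100% in the uninduced list, whereas RPLP1 and RPLP2 were higher in the induced list. Their H3K27ac coverage was 87.9% and 89.0% for RPLP0 and 96.1% and 94.5% for RPLP2. RPL5 and RPL11 carry the 5S rRNA and bind MDM2 when ribosome assembly fails. RPL5 had 7.08% Pol II coverage induced and 11.2% uninduced, and RPL11 had 26.4% and 19.2%, or 13.6% and 19.2% with regions of −log10 q of 5 or more alone, the other way round. Their H3K27ac coverage was 22.1% and 23.1% for RPL5 and 41.8% and 46.4% for RPL11.

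Mutations of members can cause Diamond-Blackfan anaemia, a failure of red cell formation. The 11 members listed here for that role are not the full set. Pol II coverage of 10 of these was lower in the induced list and of 1, RPL11, higher (though lower by 5.58 points at the stricter limit), with a median of −4.12 points, beside −4.20 for all members. At over 10 points 4 of the 11 were lower, beside 20 of 72 members, 6.43% of all genes and 19.7% of genes of 2 to 10 kb. RPS19, the first of these genes to be found, had 33.5% in the induced list and 44.2% in the uninduced list for Pol II, and 55.2% and 66.6% for H3K27ac. RPS24 had 33.7% and 36.1% for Pol II and the lowest H3K27ac coverage of all members, 9.43% and 7.13%. RPS14, lost in the 5q− syndrome, had 29.7% and 39.8% for Pol II and 37.9% and 37.4% for H3K27ac. With the stricter regions, and also with lists of equal length, its Pol II values were 29.7% and 29.9%.

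RPL10, RPL36A, RPL39 and RPS4X lie on X. Their strongest H3K27ac summits stood between percentiles 19.2 and 38.2 in the induced list and between 20.9 and 53.9 in the uninduced list, below the medians of members on autosomes, 67.7 and 69.7. Other genes on X with a summit had medians of 21.8 and 22.5, against 51.1 in both lists for other genes on autosomes. For Pol II the X-linked members stood at a median of 65.1 induced and 73.9 uninduced, and other genes on X at 25.7 and 26.0. RPL10, which overlaps another protein-coding gene, was 100% covered by Pol II in both lists, RPL39 had 15.3% and 14.2%, and RPS4X 32.6% and 29.0%.

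Among the members named for their roles, RPS2, which lines the path of the mRNA, and RPL41, the smallest ribosomal protein, were 100% covered by both marks in both lists, and so was RPL10A. RPS27A, made as a fusion with ubiquitin, was 100% covered by Pol II in both lists. RPS2, RPL41 and RPS27A, unlike RPL10A, have another protein-coding gene within 1 kb. RPL3 had 67.7% in the induced list and 66.8% in the uninduced list for Pol II, and 89.4% and 93.8% for H3K27ac. With the stricter regions RPL3 had 41.7% and 49.3% for Pol II, and 75.8% and 93.8% for H3K27ac. RPL4, which lines the exit tunnel, had 34.9% and 35.6% for Pol II, and 54.1% and 67.5% for H3K27ac. RPSA, also known as the laminin receptor, had 20.5% and 20.3% for Pol II, and 59.8% and 58.6% for H3K27ac. RPS6 had 93.9% and 97.2% for Pol II. RPL36A had 41.3% and 42.1% for H3K27ac.

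Of the 9 members of 10 kb or longer, RPS3, at the mRNA entry, had 78.1% Pol II coverage in the induced list and 82.4% in the uninduced list. The region over RPS3 was the longest of any member, 25548 bp induced and 25866 bp uninduced. RPL31 had 79.3% and 87.1%, RPS29 61.5% and 62.6%, RPL28 58.5% and 59.2%, RPL14 54.3% and 61.0%, and RPL6 37.2% and 46.4%. These annotated lengths come from the longest transcript and can exceed the one the cell uses, which lowers the percent. H3K27ac covered 19.9% and 16.9% of RPL31, 32.8% and 37.1% of RPS29, 10.96% and 17.93% of RPL28, 13.1% and 13.6% of RPL14, 22.7% and 25.5% of RPL6, and 21.7% and 25.5% of RPL22.

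The members with a tract within 5 bases of the start had a median Pol II difference of −3.42 points (50 members), and those without one −2.78 (12 members). Members of the large subunit had a median of −3.94 (44 of 2 kb or longer) and those of the small subunit −4.81 (28). FAU, outside the rule, had 61.5% Pol II coverage in the induced list and 47.0% in the uninduced list. Large differences occurred outside the family too. Those named next come from the comparison lists alone and were smaller than that of RPL18, which was not ranked among all genes. EIF4A1, a helicase of translation initiation, had 51.9% and 89.3%, RACK1, a ribosome-bound scaffold, 41.5% and 70.9%, and MRPL38 of the mitochondrial ribosome 53.3% and 92.5%. MYC, a Wnt target that drives ribosome production, had 63.8% and 68.6%.

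Of the described members, 29 hold 60 snoRNA genes between their annotated ends, 14 overlap another protein-coding gene and 33 have one within 1 kb. Their part in these values was not tested. The table also lists 1966 pseudogenes named after members, most for RPL21 with 137. Processed copies lack introns, and how reads that match several places were treated is not stated in the labels. Of 1962 such pseudogenes on the chromosomes used, 2.65% touched a Pol II region in the induced list and 3.16% in the uninduced list, against 6.32% and 7.13% of 14496 other pseudogenes, which are longer. As a check of the cell type, 10 of 10 colorectal epithelial markers were touched by H3K27ac regions in both lists, CDX2 and KRT18 over 100% of their length. Pol II regions touched 9 of these markers in the induced list and 8 in the uninduced list. CDX1 was at 0% for Pol II in both lists and LGALS4 in the uninduced list. Of 10 markers of other cells, 6 were touched by Pol II regions and 7 by H3K27ac regions. Over 19967 protein-coding genes the counts were 14031 induced and 14364 uninduced for Pol II, and 14756 and 14812 for H3K27ac. The counts of other-cell markers were near those shares, so being touched tells little about cell type. COL1A2 and ALB, of this list, were at 0% for both marks, DCN was at 0% for Pol II, and CD14, a short gene, had 69.1% Pol II coverage in the induced list and 75.6% in the uninduced list.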

How the data were processed

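ChIP-seq peak lists of DLD1 (DNTCF) cells were used: 4 lists, for Pol II and H3K27ac in induced and uninduced cells. Per the labels' protocols, each library gave 40 to 55M single-end reads 75 bp long, and the labels tie 1 list to both samples of a group. The submitters' processing notes name MACS2 2.1.1.20160309, deepTools 3.5.0, SAMtools 1.10 and BWA 0.7.17-r1188, with no role or order. The labels do not state caller settings or whether samples were pooled. The authors' values in the deposited lists are, per summit, a −log10 q, a fold enrichment (a ratio) and a score that repeats the −log10 q in whole numbers. Positions are on GRCh38, since regions on chromosome 17 reach 83228308. These values depend on depth and input, so they only rank or filter within a list.

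Rows repeating a region were joined to 1 region, and summits off the autosomes and X, at most 0.603% of a list, were left out. A region touched a gene when they shared 1 bp. Gene positions, promoter sequences and their starts are from RefSeq, GRCh38.p14. Coverage functions were tested on simulated data. Counts use genes that are 2 kb or longer and touched by a region of either list, and a limit of 25 or 10 points from the median difference. Intervals are Wilson intervals and cover counting error only. Genes are not replicates, and no test was run. The members, lists and measures were chosen with earlier results of these data known. Genes named are 20 members chosen for their roles, the 6 with the largest difference each way per mark, those of 10 kb or longer, FAU and, of the comparison lists, the most different ones. RPL10A, RPL21, RPL23A, RPL37A, RPS7 and RPS16, CD14 and the markers at 0 were named after their values were seen. Analyses used Python 3.11.15, pandas 2.3.3 and NumPy 2.4.6. Some genes that this rule names are not reported here and are left out of the drawings that name genes, though they remain in the counts and medians. The RNA-seq samples were not analysed here.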

Additional observations from a re-analysis of the deposited data

How the results depend on the processing

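The lists hold no per-sample values, so leaving out a sample gives no value. No paired analysis was possible because both samples of a group share 1 peak list. The median Pol II difference of the members kept its sign under each alternative run: it was −2.96 points with regions of −log10 q of 5 or more, −2.82 with lists of equal length, and between −3.76 and −5.20 with 1 kb added at both ends, genes of any length or readthrough loci kept. Genes of 2 to 10 kb had Pol II medians of −2.18, −1.97 and −2.98 points with the stricter regions, lists of equal length and 1 kb added. The median H3K27ac difference of the members was −2.05 points with 1 kb added and −0.289 with the stricter regions. With a limit of 10 points the members past it numbered 20 lower and 5 higher for Pol II, and 9 lower and 2 higher for H3K27ac. With lists of equal length 1 member, RPL18, was lower and 1, RPS12, higher by over 25 points for Pol II. With the stricter regions 3 were lower for Pol II (among them RPS16 and RPL36A) and 1 for H3K27ac (RPL26), and RPL18 was not among them. Median coverage with the stricter regions was 41.7% induced and 52.8% uninduced for Pol II, and 53.7% and 58.6% for H3K27ac. With lists of equal length uninduced Pol II coverage was 59.2%. Ranked by fold, the median place was 84.3 induced and 85.6 uninduced for Pol II, and 60.6 and 65.9 for H3K27ac. With summits in the gene alone it was 86.5 and 88.4, and 64.9 and 67.3. A tract was found in 80.6% of members when it could begin within 5 bases of the start. The shares of members with Pol II after the end stayed within their Wilson intervals under the 3 alternatives run, which were added after the data were seen, as were the comparisons with genes of like coverage or like summit place. Of 34 members named per mark, the stricter regions moved the difference of 22 by over 1 point for Pol II and of 16 for H3K27ac, and turned the sign of 4 and 6. The cause was not tested. With 1 list per condition, no difference can be set against replicate spread.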
